A study of Mus musculus with 60 samples.

Results

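In mouse erythroleukemia cells given hexamethylene bisacetamide (HMBA), 100 cDNA clones stood above their dimethyl sulfoxide (DMSO) and trichostatin A (TSA) levels at 24 and 36 h, and these clones are described here. They were chosen from 22656 clones in the authors' deposited table of expression ratios, after over before treatment. Each condition was averaged over its 4 arrays on the log2 scale, on which 1 unit is a 2-fold difference. A clone needed at least 3 values in every condition, which held for 14535 clones, and values below 0.3 with both DMSO and TSA at 36 h, which held for 11808 of them. Its score was the smaller HMBA value of 24 and 36 h minus the largest of the 4 DMSO and TSA values at those times, and the 100 highest scores were kept. All 100 were among the 14582 clones that could be tested.

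The cells were T-3-Cl-2-0.fl, a line described as highly differentiation-inducible (HD-MEL), grown in RPMI1640 and 10% fetal calf serum. They received 5 mM HMBA, 1.5% DMSO or 30 nM TSA for 1, 6, 12, 24 or 36 h, and RNA from each of these 15 conditions was set against RNA from cells before treatment. Each condition had 4 technical arrays: replicates 1 and 2 carried the treated RNA in Cy5, and replicates 3 and 4 carried it in Cy3. Each condition was 1 RNA extract of 1 line. No label names an untreated culture of matching time, and the labels do not say how many extracts the before-treatment RNA came from.

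Erythroleukemia cells of this kind are red cell precursors held immature by Friend virus transformation, and inducers let them resume maturation, with globin and heme synthesis and an exit from division. DMSO and HMBA are polar inducers of classic use in these cells, and HMBA is also known to free the transcription elongation factor P-TEFb from its inhibitor HEXIM1. TSA inhibits histone deacetylases, the enzymes that remove acetyl groups from histones. The files do not pair the clone identifiers with genes, so no member has a gene name or a known role here, and the labelled cell type could not be checked against its markers. Identifiers are given for the 2 highest-scoring clones, H3018D09 and H3041F03, and other members are called by their rank in the score.

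The 60 arrays listed between 16550 and 21087 clones, with median intensities before treatment of 299 to 1050, and this number of arrays and of conditions limits the precision. Across clones, which are not independent replicates, 2 arrays of the same RNA and the same dye correlated at a median r of 0.50 (Cy5) and 0.59 (Cy3). Arrays of the same RNA in opposite dyes hardly correlated, with mean r between -0.27 and 0.28 over the conditions, 0.17 for HMBA at 6 h and -0.002 for HMBA at 12 h. The 2 Cy3 arrays of HMBA at 1 h instead correlated at -0.32, so the direction of that condition is not settled and its values are given only as labelled. DMSO, HMBA and TSA values were all ratios over before-treatment RNA, and the labels do not say whether they share the same extract of it.

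Scores ran from 0.92 for H3018D09 to 0.40 at rank 100, with a median of 0.49. The scores of ranks 98 to 100 were 0.404, 0.402 and 0.402, and the next clones outside had 0.402, 0.401 and 0.400, so the edge of the set is arbitrary. With TSA in the place of HMBA, the same rule gave a 100th score of 0.63 and a highest of 2.74. With DMSO in that place these scores were 0.26 and 0.85. These values chose the clones and carry no test.

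The score compares late levels and does not ask that a clone rose. In the authors' deposited table, the smaller of the 2 late HMBA values was at least 0.5 in 60 members, below 0.3 in 15 and below 0 in 5. It ran from -0.20 to 1.36 with a median of 0.54. All 4 late DMSO and TSA values were below 0 in 43 members and below -0.3 in 12. The members therefore joined clones above their starting level with HMBA and clones near it with HMBA but below it with DMSO and TSA.

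In the log2 ratios computed here from the intensities, the median member stood at 0.27, 0.41, 0.56, 0.68 and 0.75 with HMBA at 1, 6, 12, 24 and 36 h. With DMSO at the same times it stood at -0.02, 0.03, 0.04, -0.03 and -0.08, and with TSA at 0.02, 0.17, 0.14, -0.13 and -0.16. The HMBA medians correspond to 1.33-fold at 6 h, 1.47-fold at 12 h, 1.61-fold at 24 h and 1.68-fold at 36 h over before treatment. The median of all clones tested lay between -0.024 and 0.017 in every condition. The middle 50% of members lay between 0.06 and 0.76 with HMBA at 6 h, between 0.20 and 0.92 at 12 h, between 0.51 and 0.84 at 24 h and between 0.53 and 0.98 at 36 h.

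The single arrays show how even these levels were. The member median was 0.68, 0.56, 0.43 and 0.27 on replicates 1 to 4 of HMBA at 6 h and 0.63, 0.60, 0.54 and 0.65 at 12 h. It was 0.65, 0.71, 0.63 and 0.79 at 24 h and 0.67, 0.79, 1.09 and 0.47 at 36 h. All 16 of these medians were above 0, which the choice of clones favoured at 24 and 36 h. The 2 Cy3 arrays at 36 h were the highest and the lowest of them at that time. The 4 HMBA arrays at 1 h gave 0.43, 0.64, -0.30 and 0.40, with replicate 3 alone below 0. With DMSO from 6 to 36 h the 16 arrays ranged from -0.21 to 0.15, and with TSA from -0.38 to 0.32. No array of either reached the HMBA arrays of 12, 24 or 36 h. At 24 and 36 h the choice favoured this gap, while it did not use the values of 6 and 12 h. Whether errors of a clone ran through all its HMBA arrays, early and late, was not tested.

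**Figure D1:**
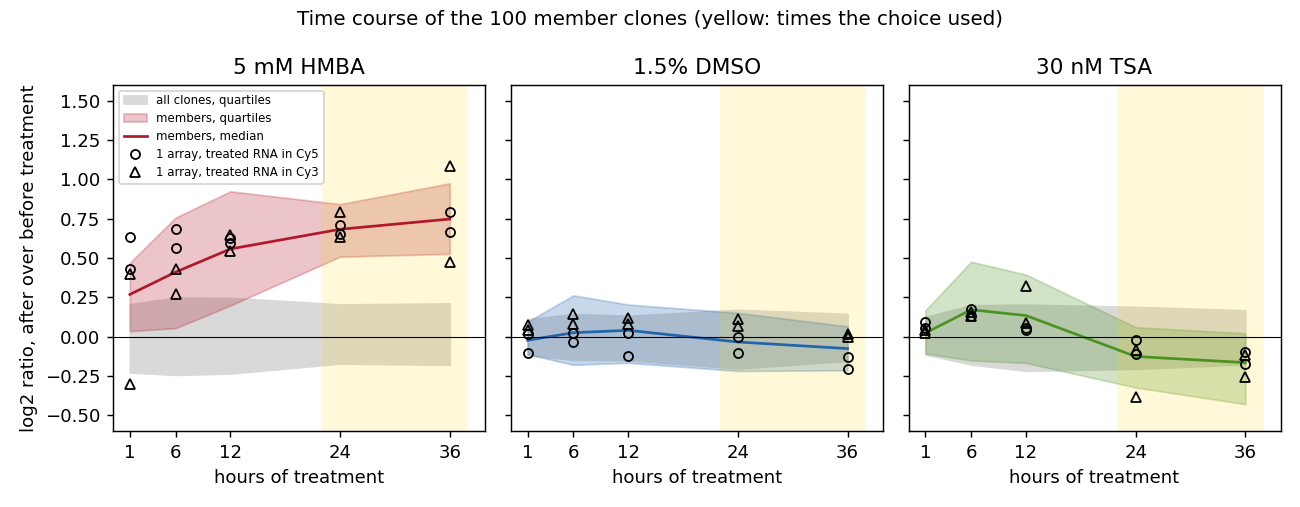
Log2 ratio after over before treatment against hours of treatment with 5 mM HMBA, 1.5% DMSO and 30 nM TSA. Lines are medians of the 100 members, coloured bands their quartiles, grey bands the quartiles of all 14582 clones, circles and triangles the member median on 1 array with treated RNA in Cy5 or Cy3, and yellow marks the times used to choose the clones. The HMBA line stands at 0.41 at 6 h and 0.75 at 36 h, while the DMSO line stays between -0.08 and 0.04.

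The clones were chosen at 24 and 36 h, but most were already higher with HMBA at 6 and 12 h, so "late" does not describe the set. At those 2 times, which the choice did not use, 53 of the 100 members rose with HMBA over before treatment and 1 fell (limma, p adjusted over all clones by Benjamini-Hochberg, below 0.05), against 9.83% and 8.17% of all clones tested. The HMBA mean of 6 and 12 h was above 0 in 84 members, against 49.7% of all clones, and its median was 0.48, against -0.002 for all clones. It was at least 0.5 in 48 members, against 8.44% of all clones, and at least 1 in 20, against 1.4%. The HMBA value was above 0 on every array listed for 50 members at 6 h, against 13.2% of all clones, and for 55 at 12 h, against 14.5%. In 23 members the mean of 6 and 12 h was at least as high as the mean of 24 and 36 h. The test rests on 6 condition values, 3 chemicals at 2 times, and does not include any spread of the RNA taken before treatment.

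**Figure D2:**
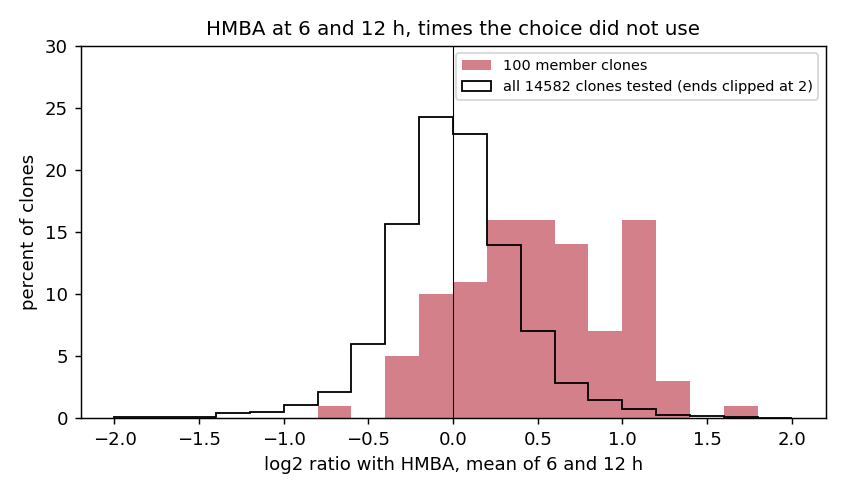
Percent of clones (vertical axis) by the mean log2 ratio with HMBA at 6 and 12 h (horizontal axis), filled for the 100 members and outlined for all 14582 clones tested. The members are shifted to higher values, with a median of 0.48 against -0.002 for all clones, and 16 members lie below 0.

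The first 25 ranks had a higher early median than the other ranks. Of ranks 1 to 25, 19 rose with HMBA at 6 and 12 h, with a median of 0.94. Of ranks 26 to 50, 14 rose, with a median of 0.48. Of ranks 51 to 75, 10 rose and 1 fell, with a median of 0.29, and of ranks 76 to 100, 10 rose, with a median of 0.38. With TSA these sets had 13, 5, 5 and 4 rises, 1, 1, 5 and 2 falls, and medians of 0.45, 0.08, -0.03 and 0.08. Of all clones, 9.83% rose with HMBA, while 8.93% rose and 7.19% fell with TSA. Ranks 1 to 5 and 11 had nearly alike courses, given below, and each rose with HMBA and with TSA. These counts are therefore not of independent clones. The first 25 ranks were also brighter, with a median intensity before treatment of 1710 against 904, 668 and 687 in the 3 following sets of 25, and the part of brightness in these counts was not tested.

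The highest early member was rank 29, with log2 ratios of 1.95 ± 0.17 and 1.40 ± 0.43 with HMBA at 6 and 12 h, then 1.08 ± 0.25 and 1.09 ± 0.60 at 24 and 36 h (SD, n = 4 technical arrays). Over 6 and 12 h it rose by 1.67 (SE 0.14, adjusted p = 0.00175). This clone was not particular to HMBA early on, since its DMSO values were 1.15 and 0.93 and its TSA values 1.36 and 0.44 at 6 and 12 h. Rank 6 went the other way in time, with 0.51 and 0.70 at 6 and 12 h and 1.20 at both 24 and 36 h with HMBA, against 0.05 and 0.28 with DMSO and 0.32 and 0.02 with TSA at 24 and 36 h. It too had risen over 6 and 12 h, by 0.61 (SE 0.11, adjusted p = 0.015).

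With DMSO at 6 and 12 h, 4 members rose over before treatment, against 1.90% of all clones, and 0 fell, against 2.37%. At an unadjusted p below 0.05, 16 members were higher with DMSO, against 7.32%, and 10 were lower, against 10.1%. Without replicate 1, 2, 3 or 4 the count of rises was 1, 1, 0 or 1, against 1.1%, 0.792%, 0.275% or 1.28% of all clones.

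With TSA at 6 and 12 h, rises among the members exceeded the share of all clones, while falls were near it. Among the members, 27 rose, against 8.93% of all clones, and 9 fell, against 7.19%. At an unadjusted p below 0.05, 38 were higher, against 16.0%, and 15 were lower, against 14.2%. The TSA mean was above 0 in 61 members, against 46.9% of all clones, and its median was 0.10, against -0.02 for all clones. Without replicate 1, 2, 3 or 4 the count of rises was 19, 13, 14 or 14, against 7.11%, 5.56%, 4.67% or 6.19% of all clones, and with treated RNA in Cy5 or Cy3 alone it was 1 or 5, against 0.24% or 2.94%. At 24 and 36 h, times that the choice used, the TSA median of the members was -0.13 and -0.16. "HMBA only" does not describe the members at 6 and 12 h. Contrasts of DMSO and of TSA against before treatment were added after the data were seen.

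Set directly against the other chemicals at 6 and 12 h, the members were higher with HMBA on balance, but few single clones passed the adjusted test. HMBA exceeded DMSO in 89 members, against 50.3% of all clones, with a median difference of 0.44. It exceeded TSA in 80 members, against 48.6%, with a median difference of 0.37, and the mean of DMSO and TSA in 87, against 50.9%, with a median of 0.39 (0.005 for all clones). For HMBA minus DMSO 0 members passed (limma, adjusted p below 0.05), as did 0.0% of all clones, while 46 were higher at an unadjusted p below 0.05, against 9.24%, and 1 was lower, against 6.51%. For HMBA minus TSA 0 members passed, where 0.439% of all clones were higher and 0.377% lower. At an unadjusted p below 0.05, 45 were higher, against 9.48%, and 2 lower, against 6.60%. For HMBA minus the mean of DMSO and TSA 1 member was higher, against 0.0892% of all clones, and 0 were lower, against 0.185%. At an unadjusted p below 0.05, 52 members were higher in that contrast, against 8.98%, and 1 was lower, against 6.71%. Without replicate 1, 2, 3 or 4 that 1 call was lost.

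The counts of direct passes moved with the clones tested. Without dim clones, 10 of the 83 members left were higher with HMBA than with DMSO, against 0.585% of all clones in that fit, 13 were higher than with TSA, against 2.67%, and 19 than with their mean, against 1.37%. These contrasts share the HMBA values and are not independent of each other. By time, HMBA was above both other chemicals in 67 members at 1 h as labelled, against 40.1% of all clones, in 64 at 6 h, against 33.4% of all clones, in 83 at 12 h, against 34.4%, and in 61 at both, against 15.7%. Both HMBA values exceeded all 4 DMSO and TSA values of 6 and 12 h in 48 members, against 10.3%. At 24 and 36 h all 100 were above both by construction, where 35.5% and 37.4% of all clones were.

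Some of the arrays place a clone on a different slide. In the DMSO arrays 20 members lay on another slide than in the HMBA arrays, against 16.6% of clones tested, and 0 members did so between TSA and HMBA arrays. For the 80 members on the same slide the median HMBA minus DMSO at 6 and 12 h was 0.46, and for the other 20 it was 0.16. The median HMBA minus TSA was 0.41 in those 80 and 0.31 in those 20.

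**Figure D3:**
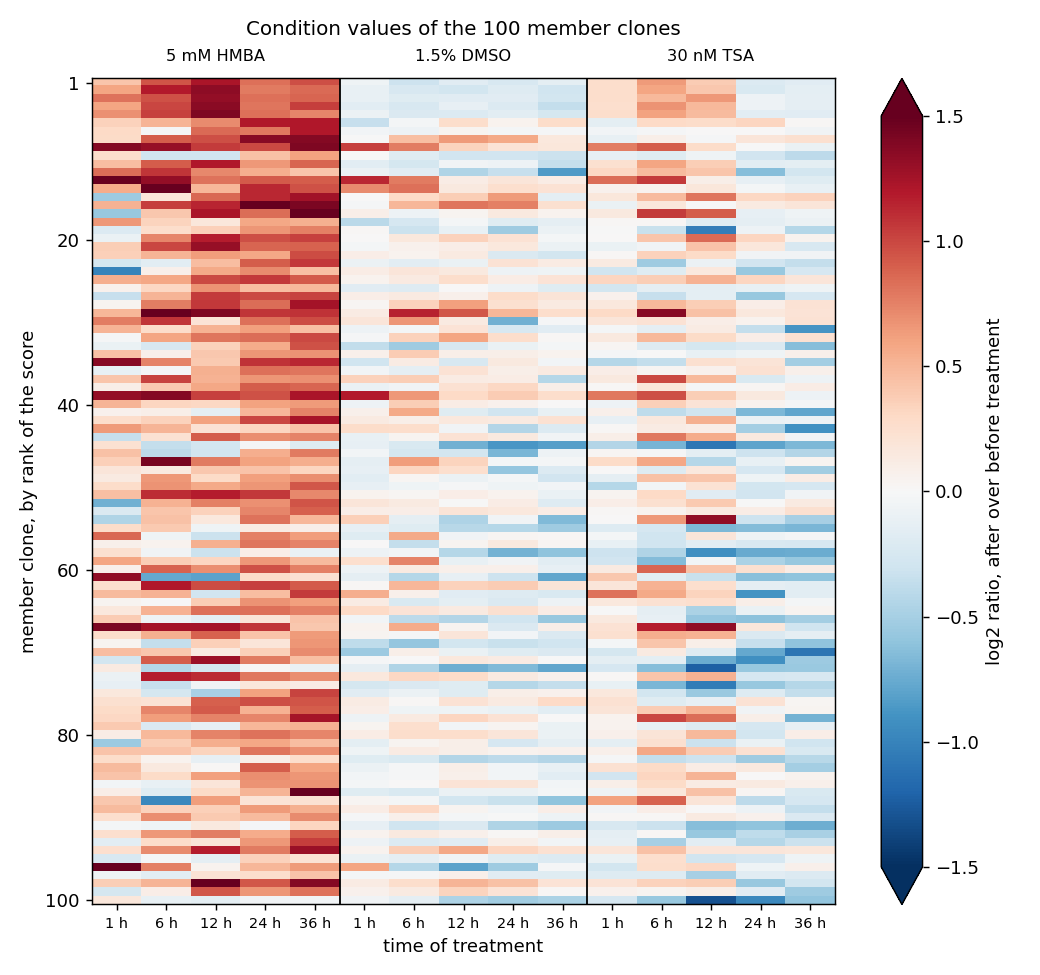
Log2 ratio after over before treatment (colour, clipped at 1.5 in both directions) of the 100 members, 1 line each in order of the score, in the 5 times of HMBA, DMSO and TSA. Most lines are red with HMBA from 6 h on, while 21 stayed below 0.3 at both 6 and 12 h, and the blue DMSO and TSA lines near ranks 45, 58, 72 and 100 go with pale HMBA values.

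H3018D09, the highest score, was a bright clone, with a median intensity before treatment of 21200. With HMBA it had log2 ratios of 1.16, 1.12, 0.58 and 0.90 on replicates 1 to 4 at 6 h and of 1.53, 1.35, 0.91 and 1.08 at 12 h. With DMSO it had -0.37, -0.14, -0.34 and -0.39 at 6 h and -0.15, -0.14, -0.16 and -0.25 at 12 h. With TSA it had 0.74, 0.70, 0.49 and 0.61 at 6 h and 0.42, 0.47, 0.26 and 0.40 at 12 h. At 12 h the HMBA arrays lay above every TSA array and these above every DMSO array. At 6 h the lowest HMBA array, in Cy3, lay within the TSA arrays. The rise with HMBA over before treatment was 1.08 (SE 0.13, adjusted p = 0.00364), a 2.11-fold change. It passed under 17 of 17 alternative settings, with values of 0.45 to 1.29, the lowest with plate-row medians removed. HMBA minus the mean of DMSO and TSA was 0.94 (SE 0.16, 95% interval 0.58 to 1.31, adjusted p = 0.0912), with values of 0.36 to 1.10 and adjusted p between 2.94e-07 and 0.34 over the alternatives. With plate-row medians removed, HMBA minus the mean was 0.36 and HMBA minus TSA 0.06, in place of 0.57.

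H3041F03, the next in score, had HMBA values of 1.42, 1.40, 0.81 and 1.11 at 6 h and 1.69, 1.51, 1.13 and 1.02 at 12 h. With DMSO it had 0.22, 0.15, -0.60 and -0.71 at 6 h and 0.03, 0.09, -0.57 and -0.64 at 12 h, positive on both Cy5 arrays and negative on both Cy3 arrays at each time. With TSA it had 0.65, 0.60, 0.64 and 0.50 at 6 h and 0.49, 0.44, 0.34 and 0.34 at 12 h. No HMBA array of this clone at 6 or 12 h overlapped the arrays of the other chemicals. It was the member that passed the direct contrast. HMBA minus the mean of DMSO and TSA was 1.14 (SE 0.14, 95% interval 0.81 to 1.47, adjusted p = 0.045). This call held under 7 of 17 alternative settings, with differences of 0.80 to 1.18 and adjusted p between 3.76e-08 and 0.34, and it was lost without each of replicates 1, 2, 3 and 4. HMBA minus DMSO was 1.52 (SE 0.16, adjusted p = 0.0582) and HMBA minus TSA 0.76 (adjusted p = 0.088). Over before treatment the clone rose by 1.26 with HMBA (SE 0.11, adjusted p = 0.00203) and by 0.50 with TSA (adjusted p = 0.0296). With DMSO the difference was -0.26 (adjusted p = 0.313).

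At the times that chose them, both clones had even values with HMBA at 24 h, with 0.91, 0.76, 0.84 and 0.81 for H3018D09 and 0.90, 0.77, 0.63 and 0.80 for H3041F03. At 36 h the arrays were far apart, with 0.72, 0.88, 2.00 and 0.25 for H3018D09 and 0.37, 0.95, 1.80 and 0.28 for H3041F03. Both levels at 24 h were below those at 12 h.

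**Figure D4:**
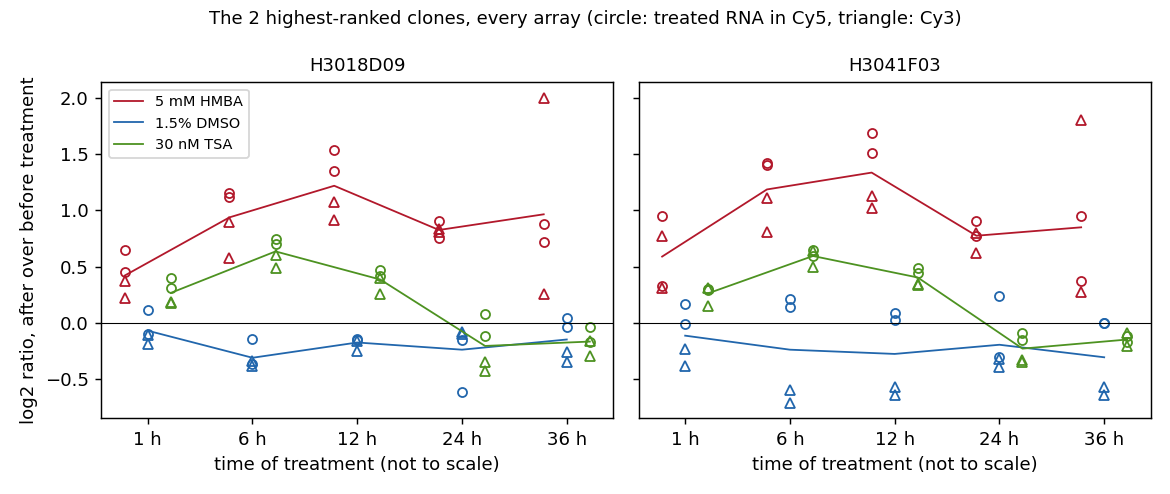
Log2 ratio after over before treatment of H3018D09 and H3041F03 at 5 times (not to scale) with HMBA, DMSO and TSA, 1 circle per array with treated RNA in Cy5, 1 triangle per array in Cy3, and lines through the condition values. HMBA values peak at 12 h in both clones, TSA values peak at 6 h and are below 0 at 24 h, and the HMBA arrays at 36 h spread from 0.25 to 2.00 in H3018D09.

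The courses of 7 members were nearly alike. Clones were linked where their 15 condition values correlated above r = 0.95, which joined ranks 1, 2, 3, 4, 5, 11 and 77. The lowest r within this set was 0.93, over 15 conditions that were all set against before-treatment RNA. These include the 24 and 36 h values that chose the clones, which favours likeness among members. These clones came from 6 plates and had median intensities of 835 to 25800. Ranks 1 and 11 lay in adjacent wells of 1 plate row, and ranks 9 and 39 of the next set did too, among 3 such pairs of members in all. Of all clones tested, 6 had an r above 0.95 with H3018D09, all of them members, and the next had 0.929. With HMBA the medians of the 7 were 0.59, 0.96, 1.31, 0.81 and 0.88 at 1, 6, 12, 24 and 36 h. With DMSO they were -0.11, -0.24, -0.17, -0.17 and -0.28, and with TSA 0.26, 0.60, 0.48, -0.16 and -0.15. Their level peaked at 12 h with HMBA and at 6 h with TSA, and every DMSO value from 6 h on was below 0. Whether these clones come from 1 gene cannot be read from the files.

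Ranks 9, 13 and 39 formed a set that was high from the first hour. With HMBA the medians were 1.38 at 1 h as labelled, then 1.31, 1.02, 0.95 and 1.23. With DMSO they were 1.13, 0.76, 0.29, 0.20 and 0.17, and with TSA 0.79, 0.97, 0.28, -0.01 and -0.10. All 3 chemicals gave high values at 1 and 6 h. At 36 h the HMBA median was 1.23, and the lower DMSO and TSA values there follow from the choice of clones. The third set, ranks 28, 32 and 94, began near 0, with HMBA medians of 0.04, 0.71, 1.06, 0.84 and 1.24. Its DMSO medians were 0.03, 0.34, 0.59, 0.27 and 0.13 and its TSA medians 0.15, 0.48, 0.29, 0.10 and 0.21.

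Ranks 8 and 16 correlated at r = 0.989, with HMBA medians of 0.41, 0.97, 1.06, 1.45 and 1.40. With DMSO they stood at 0.72 at 12 h, 0.66 at 24 h and 0.20 at 36 h, and with TSA the medians lay between -0.10 and 0.21. In all, 17 members fell into 5 such sets, and the median r between any pair of members was 0.58, with a range of -0.35 to 0.995. These r values include the 24 and 36 h values that chose the clones, so the choice itself favoured a positive r.

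**Figure D5:**
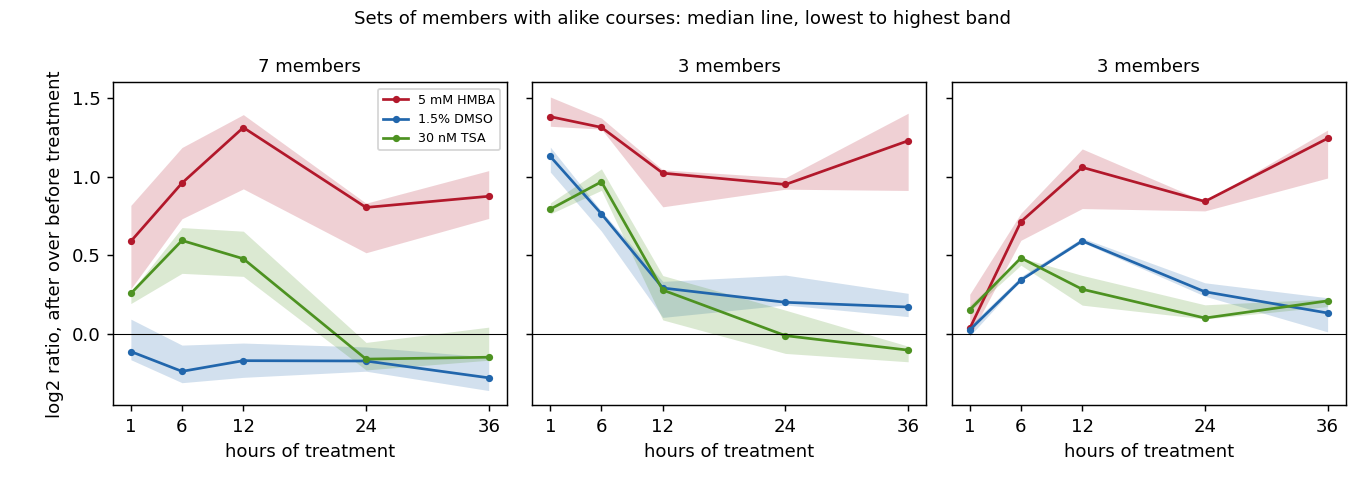
Log2 ratio after over before treatment against hours for the 3 largest sets of members with alike courses, of 7, 3 and 3 clones, with lines for medians and bands for the lowest to highest clone. HMBA lies highest at 24 and 36 h in each set by choice, while the early DMSO and TSA values differ between the sets.

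A minority of members had low values with HMBA early on. In 21 members HMBA was below 0.3 at both 6 and 12 h, against 68.8% of all clones. Their HMBA medians were -0.12, -0.14, 0.34 and 0.43 at 6, 12, 24 and 36 h, against 0.52, 0.72, 0.78 and 0.85 in the other 79. The HMBA gap at 6 and 12 h follows from this split, and the 24 and 36 h values chose the clones. Their TSA medians were -0.28, -0.31, -0.43 and -0.43, against 0.30, 0.24, -0.08 and -0.13 in the other 79. Rank 10 is the highest-scoring of these, with HMBA values of -0.30 ± 0.37, -0.29 ± 0.31, 0.44 ± 0.74 and 0.60 ± 1.11 (SD, n = 4 technical arrays). Its SD exceeded its value at both late times. Of the 4 HMBA times from 6 to 36 h, the highest level of a member was at 6, 12, 24 and 36 h in 13, 19, 29 and 39 members, against 24.6%, 23.0%, 22.8% and 29.5% of all clones. Peaks at 24 and 36 h were favoured by the choice of clones and are no separate result.

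The 15 members whose smaller late HMBA value was below 0.3 had late medians near their starting level with HMBA and below it with DMSO and TSA. This late pattern follows from the score, which put their late DMSO and TSA values at least 0.40 below that HMBA value. Their HMBA medians were -0.12, -0.13, 0.17 and 0.22 at 6, 12, 24 and 36 h. With DMSO these were -0.22, -0.28, -0.40 and -0.53, and with TSA -0.25, -0.58, -0.61 and -0.59. At 6 and 12 h 7 of the 15 fell with TSA, against 7.19% of all clones. With DMSO 0 fell, against 2.37%, and with HMBA 1 fell, against 8.17%. Ranks 45 and 58, which correlated at r = 0.95, are of this kind and bright, with intensities of 9720 and 19300. Rank 45 had HMBA values of -0.01 ± 0.12 and -0.19 ± 0.08 at 24 and 36 h, DMSO values of -0.87 ± 0.48 and -0.82 ± 0.20, and TSA values of -0.79 ± 0.28 and -0.67 ± 0.44 (SD, n = 4 technical arrays). With TSA at 6 and 12 h rank 45 fell by 0.90 (SE 0.13, adjusted p = 0.0103) and rank 58 by 0.69 (SE 0.11, adjusted p = 0.0114).

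The member that fell with HMBA early was rank 61, with -0.77 ± 0.90 at 6 h and -0.81 ± 0.45 at 12 h, a mean that fell by 0.79 (SE 0.12, adjusted p = 0.00846). It stood at 0.27 ± 0.42 and 0.22 ± 0.30 at 24 and 36 h. This clone was among the dimmest, with a median intensity of 203, and its arrays at 6 h spread more widely than its difference from 0.

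The members came from many plates but were not evenly spread over the clone collection. They came from 60 of 238 plates, at most 6 from any plate, and from 89 plate rows, of which 11 held 2 and none more. Plates whose names begin with H3 gave 91 of the 100, against 65.3% of all clones tested. Row letter C of the plates held 5 members and row letter B 18, against 12.7% and 12.3% of clones tested. Median intensities before treatment ran from 181 to 37800 with a median of 868, against 890 for all clones, and 32 members lay in the brightest 25% of clones and 17 in the dimmest 25%. In both dye orientations HMBA was above before treatment for 64 members at 6 h and 65 at 12 h, against 24.3% and 24.8% of all clones.

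The same rule with TSA in the place of HMBA picked clones with other early values. The HMBA-chosen clones had a median of 0.48 with HMBA over 6 and 12 h and 0.74 over 24 and 36 h, against -0.03 and 1.08 with TSA for the TSA-chosen 100. Of the HMBA-chosen clones 53 rose and 1 fell with HMBA at 6 and 12 h, against 9.83% and 8.17% of all clones. In 23 the early mean was at least the late one. Of the TSA-chosen clones 10 rose and 14 fell with TSA at 6 and 12 h, against 8.93% and 7.19% of all clones, so the rises were near that share. In 3 the early mean was at least the late one. The sets shared 0 clones, and the difference between them was not tested.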

How the data were processed

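The deposited arrays give 2 spot intensities per clone, before and after treatment, per the file headers, on a linear scale. The authors also deposited 1 linear ratio per clone and array, with a median of 0.924 to 1.07 per array, whose centring the labels do not describe. This ratio correlated at r = 0.899 to 0.996 with the log2 ratio computed here, which settled its direction. It was used for the choice of clones.

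Intensities were corrected by normexp (offset 50) and normalized by loess (span 0.3) per slide with limma 3.58.1 in R 4.3.3. No background measure was in the files, so a clone was tested where every condition listed it on 3 or more arrays. The 4 technical arrays of a condition were averaged over dye orientations into 1 value. An additive limma model of chemical and time on the 6 condition values of 6 and 12 h had 2 residual degrees of freedom, was two-sided and was tested on simulated data. Its p-values and SEs rest on how far condition values depart from this additive model, and not on repeated cultures. These departures may be technical or may be differences in time course between the chemicals, which the model cannot tell apart. The 24 and 36 h values chose the clones and were not tested.

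The members and lists were chosen with earlier results of these data known. Clones to name were the 20 highest scores, those at the edge, and the 10 members with the smallest adjusted p in HMBA minus the mean of DMSO and TSA, with identifiers for the 2 highest. Other ranks given as examples were chosen after their values were seen. The 0 matches between clone identifiers and the RefSeq gene table (GRCm38.p6) left 27 gene lists untested.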

Additional observations from a re-analysis of the deposited data

Results flagged for a closer look

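Among the 45 groups of 4 arrays examined for the 2 named clones and the member median, 4 held an array far from the other 3, by Dixon's test. Chance gives such a gap in about 1 of 20 groups. H3018D09 with DMSO at 24 h had -0.615 on one array, against -0.152, -0.100 and -0.080 on the others. H3041F03 with DMSO at 24 h had 0.242, against -0.394, -0.32 and -0.30. H3041F03 with TSA at 1 h had 0.148, against 0.290, 0.303 and 0.315. The member median with TSA at 12 h was 0.322 on one array, against 0.043, 0.056 and 0.085. H3041F03 also differed between chemicals by the model's own test, with HMBA minus the mean of DMSO and TSA at 1.139 over 6 and 12 h (limma, adjusted p = 0.045).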

How the results depend on the processing

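The early rise with HMBA held under the alternatives except as given here, while the counts of the direct contrasts moved, and where a value moved the cause was not tested. The 87 members higher with HMBA than with the mean of DMSO and TSA stayed within 1.5 times under 17 of 17 alternatives. The counts ran from 68, of 73 members tested, to 94 of 100. The 53 members that rose over before treatment stayed within 1.5 times under 16 of 17 (34 of 100 to 60 of 92). The exception was treated RNA in Cy5 alone, with 34 members, 1084 of all clones in place of 2625, and a member median of 0.573 in place of 0.48. Of all clones, HMBA against before treatment called 1134 with arrays scaled to the same spread and 1270 with 1 h added and its HMBA replicate 3 turned, and the member median was 0.334 with replicate 4 turned.

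Counts of clones here cover both directions, and counts of members those higher. HMBA minus DMSO called 0 clones, HMBA minus TSA 119 (0 members) and HMBA minus their mean 40 (1 member). With dim clones left out these were 95 (10), 435 (13) and 215 (19), and with clones listed on all 4 arrays of every condition 69 (10), 317 (12) and 144 (13). HMBA minus TSA called 64 clones under median centring, 31 with scaled arrays, 270 (9) with plate-row medians removed, and 1 member each with deposited ratios and with no background correction. It called 0 clones in Cy5 alone, in Cy3 alone and with 1 h added and replicate 3 or 4 turned, and 1 with 1 h added as labelled. HMBA minus the mean called 0 clones and 0 members with scaled arrays, Cy5 alone, Cy3 alone and 1 h added in all 3 forms, and 3 members with plate-row medians removed.

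Leaving out each replicate in turn gave 0 to 59 clones for HMBA minus TSA, 0 to 13 (0 members) for HMBA minus the mean, and 1673 to 1937 (40 to 45 members) for HMBA against before treatment, with member medians of 0.461 to 0.572. A fit on single arrays with the replicate block tested 12407 clones, 92 of them members; it counts technical arrays nearly as independent samples, as its correlation of -0.0374 within a condition leaves them. It called 1188 (39), 1332 (39) and 1195 (41) in the 3 direct contrasts and 4722 (60) against before treatment. Deviations of same-numbered arrays correlated at -0.0603 to 0.505 (median 0.128), over 0.1 in 40 of 60 pairs, and within a dye orientation at -0.111 to 0.215 (median 0.002), over 0.1 in 8 of 60. As not every pair was over 0.1, the numbers were not taken to pair the arrays.

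Of the 100 members, the rule kept 81 when applied to the ratios computed here, 66 under median centring, 39 with plate-row medians removed, 34 in Cy3 alone, 35 in Cy5 alone and 53 to 61 without 1 replicate. Over the alternatives 0 to 14 members were called higher with DMSO at 6 and 12 h and 1 to 35 with TSA, the most with the replicate block, against 6.86% and 14.9% of all clones there. The 2 residual degrees of freedom, unnamed clones and technical replicates limit what can be read, and no value covers repeated cultures.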
